A study of Mus musculus with 20 samples.

Results

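The 10 genes described here are markers of macrophages: Adgre1, Msr1, Mrc1, Mertk, Cd14, Cd68, Lyz2, C1qa, Tyrobp and Fcer1g. They were chosen by name from the 43432 genes of the deposited table and are followed across 20 mouse libraries in 7 groups. All 10 were found, 9 by symbol and Adgre1 by its Ensembl identifier, since the deposited annotation lists it under the older symbol Emr1. RNA sequencing was done on cells of nude mice. Of the 7 groups, 5 are host cells that grew beside SU3, a human glioma stem cell line, and are labelled as malignantly transformed. C12 (3 libraries) is labelled as macrophages transformed in culture, from peritoneal washing cells kept with SU3. ih_CTC (3) is labelled as transformed macrophages of a peritoneal xenograft, and ih_DCTC (3) as bone marrow dendritic cells transformed in culture with SU3. ih_BCTC (3) is labelled as oligodendrocytes recultured from an SU3 tumour of the brain. ih_STC_BM (3) is labelled as mesenchymal stem cells, cultured from a tumour grown in a mouse with damaged and then rebuilt marrow. The study sets these lines against MDSC (3), myeloid-derived suppressor cells, and MSC (2), mesenchymal stem cells of normal bone marrow. The labels describe monoclonal culture of lines, MDSC and MSC, and a shared DMEM and serum medium that is stated for every group except ih_BCTC. They name no animal, clone, culture date or batch, so a p-value here measures only the spread between libraries, which may be technical.

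Macrophages are tissue phagocytes that sense, engulf and digest microbes and dying cells. Their surface carries receptors for sugars, lipids and bacterial products (Mrc1, Msr1, Cd14) and for the phosphatidylserine of dying cells (Mertk, through bridging proteins such as Gas6). Tyrobp and Fcer1g are small membrane adaptors of a different set of receptors, such as Trem2 and Fc receptors. Their immunoreceptor tyrosine-based activation motif (ITAM) passes signals of those receptors to the kinase Syk. Lyz2 and Cd68 serve digestion, and C1qa makes a chain of C1q, the first component of complement, which macrophages secrete. The transcription factor PU.1, made by Spi1, and factors of the C/EBP and AP-1 families are the best known regulators of such genes in myeloid cells.

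Promoter sequences of Mrc1, Cd68 and Lyz2 are shown because these 3 genes, all high in MSC and low in most lines, left different traces in the lines. They are RefSeq promoters of build GRCm38.p6, the 250 bases before the start site, written 5′ to 3′ on the gene's strand. Capitals mark matches on either strand to GAGGAA (the PU.1 core, TTCCTC when reversed), to TTGCNNAA (C/EBP) and to TGANTCA (AP-1); no 2 matches overlap.
Mrc1 (chr2:14229164-14229413, plus strand): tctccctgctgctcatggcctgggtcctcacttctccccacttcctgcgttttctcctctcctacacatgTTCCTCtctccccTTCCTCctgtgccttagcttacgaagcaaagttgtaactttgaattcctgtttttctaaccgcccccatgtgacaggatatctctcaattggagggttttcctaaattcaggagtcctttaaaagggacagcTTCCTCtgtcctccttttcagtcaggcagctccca
Cd68 (chr11:69666171-69666420, minus strand): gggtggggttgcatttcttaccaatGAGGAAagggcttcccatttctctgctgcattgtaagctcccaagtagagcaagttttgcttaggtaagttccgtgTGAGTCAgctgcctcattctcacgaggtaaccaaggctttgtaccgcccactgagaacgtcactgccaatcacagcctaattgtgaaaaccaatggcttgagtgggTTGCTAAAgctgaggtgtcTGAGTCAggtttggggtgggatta
Lyz2 (chr10:117282273-117282522, minus strand): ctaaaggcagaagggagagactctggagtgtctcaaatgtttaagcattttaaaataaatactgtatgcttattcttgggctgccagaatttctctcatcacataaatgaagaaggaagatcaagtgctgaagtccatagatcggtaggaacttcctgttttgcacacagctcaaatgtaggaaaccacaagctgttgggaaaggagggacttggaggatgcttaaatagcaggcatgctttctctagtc
The Mrc1 window held the PU.1 core 3 times, all on the minus strand, with first bases 180, 167 and 35 bases before the start. The Cd68 window held it once, 225 bases before the start, with AP-1 matches at 149 and 24 and a C/EBP match at 43. The Lyz2 window held none of the 3 letter strings, nor did those of Mertk and Fcer1g. Among 27025 RefSeq mouse promoters of the same length, 23.1% held the PU.1 core, 9.55% the C/EBP string and 6.87% the AP-1 string. Promoters of the other 5 genes were not used here.

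Every one of the 10 genes was read in MDSC and in MSC. In the 5 lines, Adgre1, Msr1, C1qa and Tyrobp averaged under 1 CPM in each line, while Cd68, Cd14 and Lyz2 stayed above it in every line library. Levels are CPM, a library's counts scaled to one common total, after TMM normalization, which adjusts library sizes for composition. A gene was called where edgeR's quasi-likelihood test gave an adjusted p under 0.05 over 15779 tested genes. Against MDSC, the genes called lower were 9 of 10 in C12 (30.5% of all tested genes were called lower), 10 in ih_CTC (27.1%), 8 in ih_DCTC (28.1%), 9 in ih_BCTC (27.3%) and 9 in ih_STC_BM (29.4%). Against MSC, all 10 were called lower in C12 (18.4% of all genes), ih_CTC (19.9%), ih_DCTC (18.1%), ih_BCTC (20.8%) and ih_STC_BM (17.4%). None of the 10 was called higher in any line by edgeR, with 0 at an unadjusted p under 0.05 and 0 by DESeq2. Of all tested genes, 31.3% were called higher against MDSC in C12, 28.2% in ih_CTC, 31.2% in ih_DCTC, 28.7% in ih_BCTC and 32.3% in ih_STC_BM. Against MSC the shares were 14.7% in C12, 14.7% in ih_CTC, 16% in ih_DCTC, 15.9% in ih_BCTC and 14.8% in ih_STC_BM. The median log2 fold change of the 10 genes lay between -8.17 and -6.21 against MDSC, where the median of all genes lay between 0.03 and 0.10. With C1qa at its bound in C12, where it had no count, the C12 median against MDSC was -6.97 in place of -7.30. Adgre1, Msr1, C1qa and Tyrobp were above the filter on low counts (0.98 CPM) in none of the 15 line libraries and in all 5 of MDSC and MSC. These 4 entered the test only through the groups where they were high. The counts and medians, and every p-value given for these 4 genes, therefore describe the genes and are not read as support. Since these are bulk RNA samples, fewer cells of a type and less RNA per cell cannot be told apart. The comparisons of the 5 lines share the same MDSC or MSC libraries. Words such as kept, left, remained, fell and rose compare a level with that of MDSC or MSC. They do not state descent from either group, which was not tested.

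**Figure D1:**
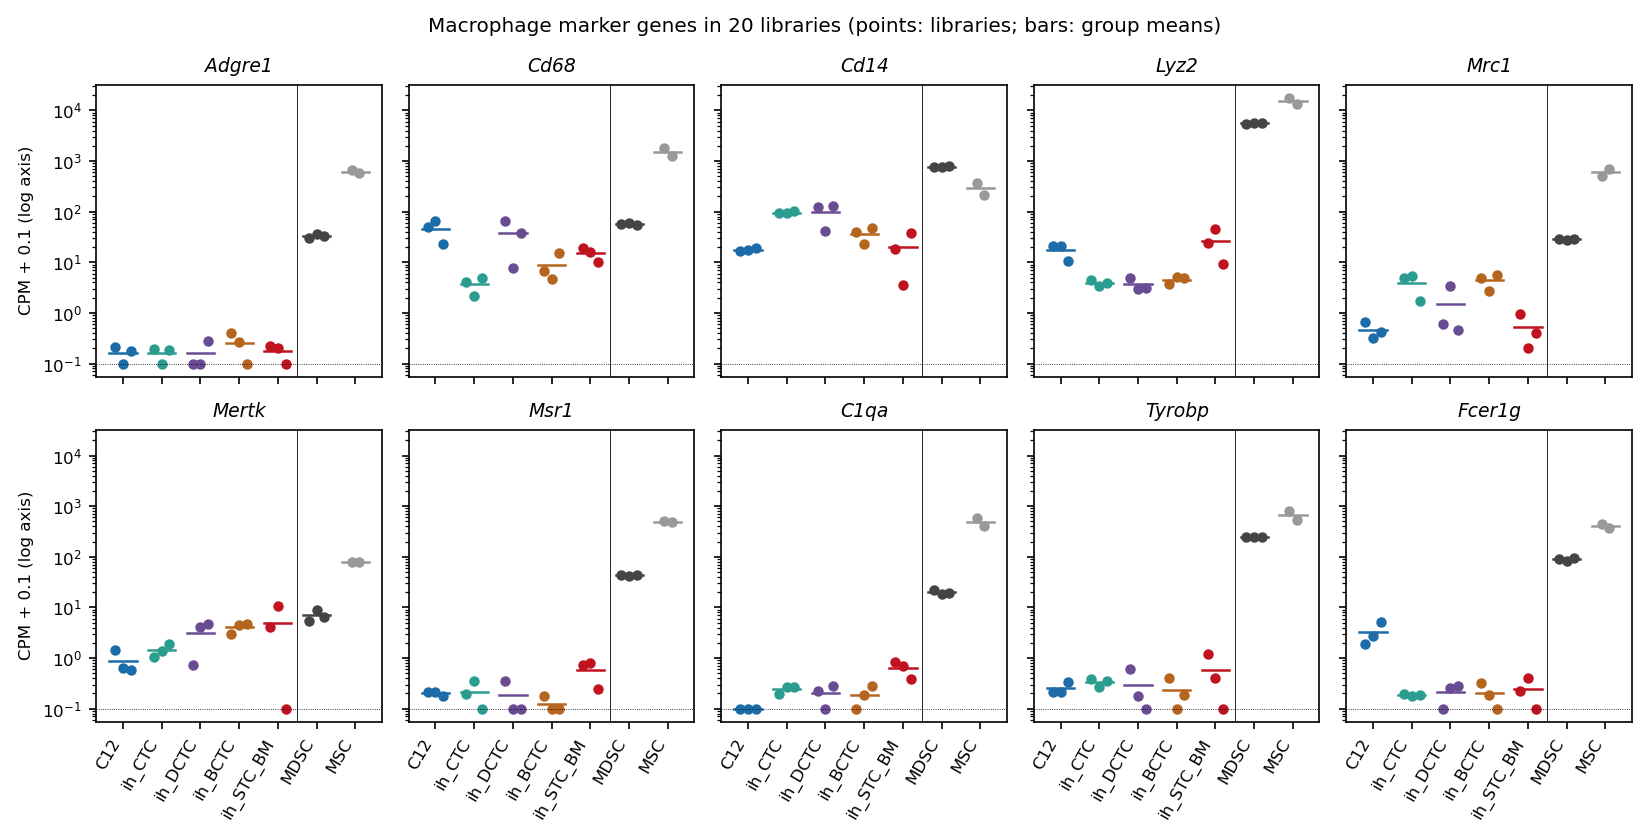
Level of each of the 10 genes in every library, as CPM plus 0.1 on a log axis, with points for libraries and bars for group means; the lines stand to the left of MDSC and MSC. Every line library lies below every MDSC library in all panels except Cd68 and Mertk, which overlap with MDSC in some lines, and Fcer1g is highest among the lines in C12.

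Total expected counts ran from 8794777 to 12400640 a library, and 67.4% to 77% of reads were mapped. At that depth, a count of 0 over a group's libraries allows a level of up to 0.0833 to 0.121 CPM in a line, 0.112 CPM in MDSC and 0.143 CPM in MSC (3 counts; intervals and limits of this kind cover counting error only). Intronic reads made up 1.02% to 8.52% of the line libraries, against 9.64% to 10.4% in MDSC and 2.07% and 3.09% in MSC; fits with that share as a covariate are given with the limits. The 3 MDSC libraries were far more alike than those of any other group (chi-square per degree of freedom 25.6 to 282 within the lines, 1.73 to 3.32 within MDSC and 41.7 within MSC). Their difference exceeded counting error, which does not show that they are independent samples. They were kept as 3 libraries, and what changed with MDSC summed is given with the limits.

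Adgre1, the adhesion receptor stained as the standard surface marker of mouse macrophages, was all but absent from the lines. It lies on chr17:57358686-57483529 (plus strand) in the deposited coordinates; their genome build is not stated in the sources at hand. Its levels were 0.11, 0 and 0.0783 CPM in C12, 0.0961, 0 and 0.0856 CPM in ih_CTC, 0, 0 and 0.181 CPM in ih_DCTC, 0.3, 0.172 and 0 CPM in ih_BCTC, and 0.123, 0.101 and 0 CPM in ih_STC_BM. MDSC had 29.6, 36.2 and 32.8 CPM and MSC had 656 and 578 CPM. No line library came near either group: each line held 2 counts in all, or 6 in ih_BCTC, against 877 in MDSC. By pooled counts (a group's counts over its summed scaled library sizes), C12 was 508-fold lower than MDSC (95% counting interval 140 to 4197). On the same measure ih_CTC was 563-fold lower (155 to 4652), ih_DCTC 530-fold lower (146 to 4383) and ih_STC_BM 406-fold lower (112 to 3359). In ih_BCTC, with more counts, the mean was 209-fold lower. The edgeR adjusted p against MDSC was 5.3e-09 to 1.1e-08, for a gene that entered the test only through MDSC and MSC. Adgre1 showed no called difference among the lines (edgeR adjusted p = 0.684). With 2 to 6 counts a line, that result is not read as likeness of the lines.

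Msr1, the class A macrophage scavenger receptor, on chr8:39581700-39642678 (minus strand), was low in the same way, with the most counts in ih_STC_BM. It stood at 0.11, 0.11 and 0.0783 CPM in C12, 0.0961, 0.245 and 0 CPM in ih_CTC, 0.249, 0 and 0 CPM in ih_DCTC and 0.0751, 0 and 0 CPM in ih_BCTC. ih_STC_BM had 0.616, 0.709 and 0.147 CPM, a total of 13 counts against 1 to 4 in each other line. Its range overlapped with those of ih_CTC and ih_DCTC, and on so few counts the lines are not ordered. MDSC had 43.5, 41.7 and 42.9 CPM and MSC 506 and 478 CPM, and no line library overlapped with them. In ih_STC_BM the log2 fold change was -6.35 against MDSC and -9.87 against MSC. By pooled counts, ih_BCTC, with 1 count, was 1538-fold lower than MDSC (95% counting interval 276 to 60820). C12 was 441-fold lower on that measure (151 to 2143) and ih_DCTC 691-fold lower (191 to 5715).

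Mrc1, the mannose receptor that binds sugars of microbes and glycoproteins and marks many resident macrophages, kept a small, line-dependent level. It lies on chr2:14229392-14332057 (plus strand), and its promoter is the first printed above; the microRNA gene Mir511 inside it was at 0 in every group. ih_BCTC had 4.88, 2.58 and 5.42 CPM and ih_CTC 4.71, 5.22 and 1.63 CPM. ih_DCTC had 0.498, 3.31 and 0.363 CPM, C12 had 0.549, 0.219 and 0.313 CPM, and ih_STC_BM had 0.863, 0.101 and 0.293 CPM. The levels in MDSC were 28.8, 27.6 and 28.1 CPM and those in MSC 512 and 706 CPM. Every line library lay below MDSC, and those of C12 and ih_STC_BM lay below all of ih_BCTC and ih_CTC. The log2 fold change against MDSC was -6.26 ± 0.77 (SE) in C12, -6.07 ± 0.77 in ih_STC_BM, -4.26 ± 0.65 in ih_DCTC, -2.87 ± 0.60 in ih_CTC and -2.71 ± 0.59 in ih_BCTC (edgeR adjusted p of 2.3e-06 to 0.00084). The difference among the lines was called (edgeR adjusted p = 0.00205).

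Mertk, the receptor tyrosine kinase through which macrophages clear dying cells, was low in MDSC already and was the gene for which lines and MDSC differed least clearly. It lies on chr2:128698956-128802894 (plus strand); the antisense gene Gm14011 and the small RNA gene Gm23172 that overlap it were at 0 in every group. C12 had 1.32, 0.548 and 0.47 CPM, ih_CTC 0.961, 1.31 and 1.8 CPM, and ih_DCTC 0.622, 3.91 and 4.62 CPM. ih_BCTC had 2.85, 4.47 and 4.61 CPM, and ih_STC_BM had 3.95, 10.3 and 0 CPM, the widest spread of any line. MDSC had 5.3, 8.77 and 6.49 CPM and MSC 80.3 and 78.6 CPM. The libraries of ih_STC_BM spanned those of MDSC, whereas each library of the other 4 lines lay below each of MDSC. Mertk was called lower than MDSC in C12 (log2 fold change -3.15 ± 0.91 SE, edgeR adjusted p = 0.00628) and in ih_CTC (-2.32 ± 0.85, edgeR adjusted p = 0.0272). With intron share as a covariate neither call held (-0.62, edgeR adjusted p = 0.677 in C12, and 0.215 in ih_CTC). The ih_CTC call also ended without ih_CTC library 1, ih_CTC library 2 or MDSC library 2 (edgeR adjusted p = 0.0887, 0.0738 and 0.0731). The differences in ih_DCTC (-1.14, 95% interval -2.82 to 0.55), ih_BCTC (-0.79, -2.45 to 0.88) and ih_STC_BM (-0.50, -2.16 to 1.16) were not called. Without ih_STC_BM library 3, the value at 0, that last difference turned to 0.08. All 5 lines were lower than MSC, with log2 fold changes of -6.68 to -4.03.

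Cd14, the co-receptor that hands bacterial lipopolysaccharide to Tlr4, kept the largest share of its MDSC and MSC levels in ih_CTC and ih_DCTC. It lies on chr18:36725074-36726736 (minus strand). ih_DCTC had 121, 41.4 and 128 CPM, ih_CTC 93.3, 92.3 and 101 CPM, and ih_BCTC 38.7, 23.4 and 47.8 CPM. ih_STC_BM had 18.4, 3.44 and 37.1 CPM, and C12 had 16.7, 17.5 and 18.9 CPM. MDSC had 767, 756 and 781 CPM, and MSC 375 and 218 CPM. Every line library lay below both groups, and ih_CTC lay above ih_BCTC, ih_STC_BM and C12 without overlap. Cd14 was called lower than MDSC in all 5 lines, with log2 fold changes of -5.44 in C12, -5.30 in ih_STC_BM, -4.39 in ih_BCTC, -3.01 in ih_CTC and -2.99 in ih_DCTC (edgeR adjusted p of 1.8e-06 to 0.00029). Against MSC the fall was -4.06 in C12, -3.92 in ih_STC_BM and -3.02 in ih_BCTC. It was -1.64 ± 0.59 (SE) in ih_CTC (edgeR adjusted p = 0.0412) and -1.61 ± 0.59 in ih_DCTC (edgeR adjusted p = 0.0445). Both calls lay near the threshold and ended when any of several single libraries was left out. Some of these were outside the comparison, such as C12 library 1 (edgeR adjusted p = 0.0516 in ih_CTC and 0.0554 in ih_DCTC). Without MSC library 1 the calls gave edgeR adjusted p = 0.292 in ih_CTC and 0.297 in ih_DCTC, and 0.144 in ih_DCTC without ih_DCTC library 2. The other libraries whose loss ends them are given with the limits.

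Cd68, a glycoprotein of late endosomes and lysosomes and a common macrophage stain, had levels in C12 and ih_DCTC that overlapped with those of MDSC. It lies on chr11:69664213-69666153 (minus strand), and its promoter is printed above. C12 had 49.4, 66.1 and 22.6 CPM, and ih_DCTC had 66.2, 7.67 and 37 CPM. ih_STC_BM had 19.2, 15.9 and 9.97 CPM, ih_BCTC 6.53, 4.64 and 15.5 CPM, and ih_CTC 4.04, 2.04 and 4.88 CPM. MDSC had 56.9, 58.3 and 54.2 CPM and MSC had 1780 and 1239 CPM. C12 and ih_DCTC overlapped with MDSC, each with 1 library above it, and the other 3 lines lay below it. Cd68 differed from MDSC by -0.30 in C12 (95% interval -1.52 to 0.93) and by -0.62 in ih_DCTC (-1.84 to 0.61), neither called, and the C12 value turned to 0.03 without C12 library 3. It was called lower in ih_CTC (-3.95, edgeR adjusted p = 7.5e-05), ih_BCTC (-2.67, 0.00141) and ih_STC_BM (-1.91, 0.0113). The ih_STC_BM call ended without ih_STC_BM library 3 (edgeR adjusted p = 0.052). Against MSC, all 5 lines were far lower, at -8.69 in ih_CTC to -5.04 in C12.

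Lyz2, the secreted lysozyme of macrophages and granulocytes, was the most abundant of the 10 in MDSC and MSC and fell furthest in CPM. It lies on chr10:117277334-117282274 (minus strand) with the window shown above just before it. C12 had 21, 20.6 and 10.5 CPM, ih_STC_BM 24.4, 45.1 and 8.94 CPM, ih_BCTC 3.6, 5.07 and 4.7 CPM, ih_CTC 4.32, 3.26 and 3.85 CPM, and ih_DCTC 4.86, 2.86 and 2.99 CPM. MDSC had 5497, 5746 and 5760 CPM and MSC 17740 and 13120 CPM. C12 and ih_STC_BM stood above the other 3 lines in every library, and all 5 lines stood below MDSC by a wide margin. The log2 fold change against MDSC was -8.35 in C12 and -7.76 in ih_STC_BM, and -10.54, -10.64 and -10.31 in ih_CTC, ih_DCTC and ih_BCTC (edgeR adjusted p of 4.5e-10 to 4.1e-09). Its near-identical neighbour Lyz1, at 1.73 CPM in MDSC and 7.35 CPM in MSC, could share reads with it, so the split between both is uncertain. Per kilobase of exon, Lyz2 led the 10 genes in MDSC (4307 CPM per kb) and MSC (11730 CPM per kb). Its mean was also the highest in ih_STC_BM (19.9 CPM per kb). There its range of 6.795 to 34.25 overlapped with those of Cd68 (7.93 to 15.3) and Cd14 (1.989 to 21.41). Cd68 led in C12 (36.6 CPM per kb), and Cd14 led in ih_CTC (55.1), ih_DCTC (56) and ih_BCTC (21.2 CPM per kb). In ih_DCTC the range of Cd14 (23.92 to 74.05) overlapped with that of Cd68 (6.102 to 52.68).

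C1qa, a chain of the complement starter C1q, had no count in any C12 library. It lies on chr4:136895917-136898803 (minus strand). ih_CTC had 0.0961, 0.163 and 0.171 CPM, ih_DCTC 0.125, 0 and 0.181 CPM, and ih_BCTC 0, 0.086 and 0.181 CPM. ih_STC_BM had 0.74, 0.608 and 0.293 CPM, above every library of the other lines. MDSC had 22.2, 18.4 and 19.2 CPM and MSC 585 and 407 CPM. C12 was at least 206-fold lower than MDSC and at least 5129-fold lower than MSC, taking the limit of 3 counts over the group (edgeR adjusted p = 9.1e-09 against MDSC). The log2 fold change against MDSC was -6.99 in ih_CTC and -5.13 in ih_STC_BM. With 3 counts each, by pooled counts, ih_DCTC was 215-fold lower (95% counting interval 73.2 to 1046) and ih_BCTC 239-fold lower (81.5 to 1164). The partner chains C1qb and C1qc stood alike: C1qb averaged 0.0627 to 0.452 CPM in the lines, 16.9 CPM in MDSC and 664 CPM in MSC, and C1qc averaged 0.113 to 0.553 CPM in the lines, 19.3 CPM in MDSC and 833 CPM in MSC.

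Tyrobp, the adaptor of receptors such as Trem2, was nearly absent from every line. It lies on chr7:30413788-30417577 (plus strand). Its levels were 0.11, 0.11 and 0.235 CPM in C12, 0.288, 0.163 and 0.257 CPM in ih_CTC, 0.498, 0.0752 and 0 CPM in ih_DCTC, 0.3, 0 and 0.0904 CPM in ih_BCTC, and 1.11, 0.304 and 0 CPM in ih_STC_BM. MDSC had 241, 251 and 248 CPM and MSC 789 and 537 CPM. No line library passed 1.11 CPM, and the ranges of the lines overlapped among themselves. The test among the lines gave no call (edgeR adjusted p = 0.485). With 5 to 12 counts a line, it is not read as likeness of the lines. The log2 fold change against MDSC was -10.69 to -8.97 (edgeR adjusted p of 5.9e-09 to 1.6e-08).

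Fcer1g, the shared gamma chain of Fc receptors, was the adaptor with a trace in C12. It lies on chr1:171229572-171234365 (minus strand). C12 had 1.76, 2.63 and 4.93 CPM, from 16, 24 and 63 counts. No library of the other lines passed 0.304 CPM, and each of those lines held 3 or 4 counts in all. MDSC had 90.3, 83 and 93.1 CPM and MSC 449 and 362 CPM. C12 thus stood above every other line library and below every MDSC library. Its log2 fold change against MDSC was -4.81 ± 0.46 (SE, edgeR adjusted p = 1e-07), against -9.51 to -9.02 in ih_DCTC, ih_BCTC and ih_STC_BM. By pooled counts, ih_CTC, with 3 counts, was 1019-fold lower than MDSC (95% counting interval 348 to 4945). The difference among the lines was called (edgeR adjusted p = 5.2e-06). Tyrobp did not share that trace, with 5 counts in C12.

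**Figure D2:**
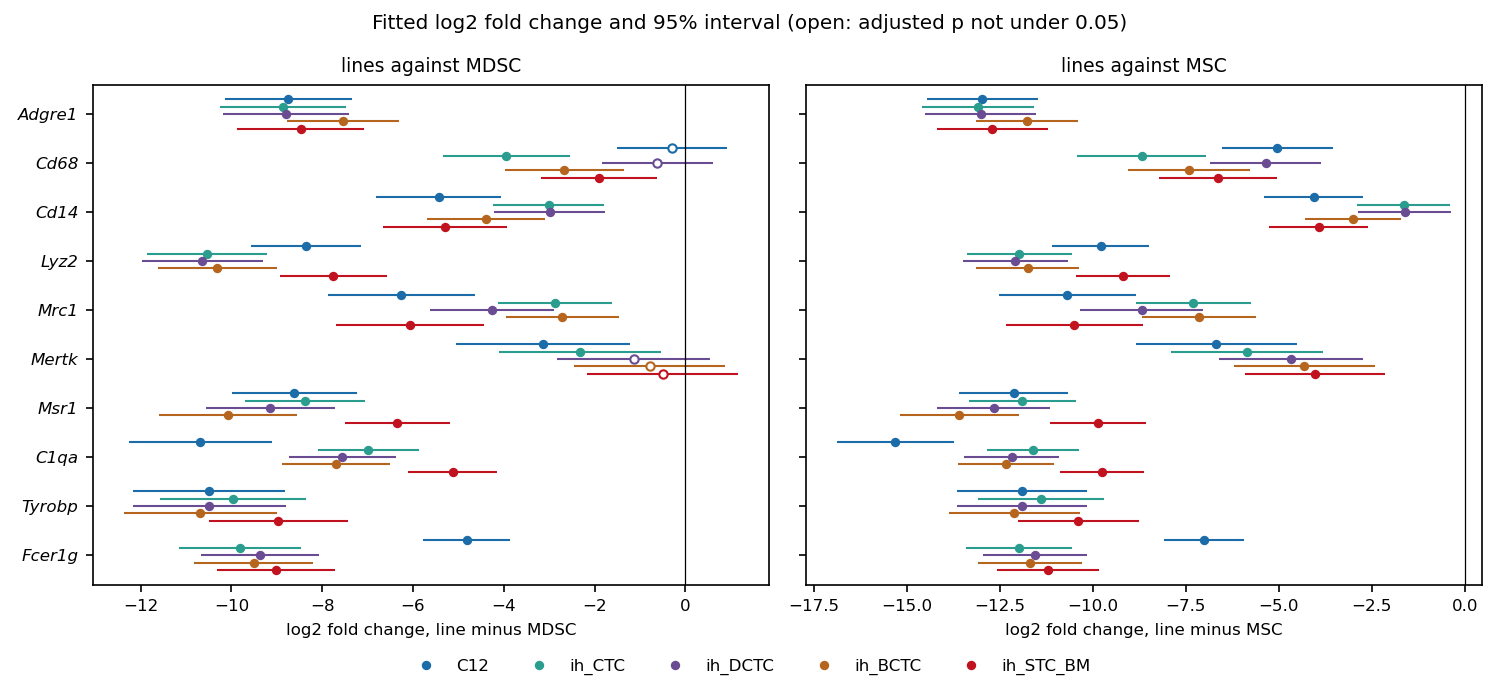
Fitted log2 fold change of each gene in the 5 lines against MDSC (left) and MSC (right), with 95% intervals; open points have an edgeR adjusted p of 0.05 or more. Against MSC all points are filled and left of 0, while against MDSC the open points are Cd68 in C12 and ih_DCTC and Mertk in ih_DCTC, ih_BCTC and ih_STC_BM; the point of C1qa in C12, where it had 0 counts, depends on the fit's prior count and is no bound.

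What remained in the lines differed from gene to gene and from line to line. The test of any difference among the 5 lines called 7 of the 10 genes, beside 33.2% of all tested genes: Fcer1g (edgeR adjusted p = 5.2e-06), Lyz2 (8.9e-05), Cd68 (0.00153), Mrc1 (0.00205), Cd14 (0.00339), C1qa (0.00608) and Msr1 (0.028). C1qa and Msr1 were above the filter on low counts in none of the 15 line libraries, with 0 to 14 counts a line, so their calls are listed but not read as differences between lines. Adgre1 (edgeR adjusted p = 0.684), Tyrobp (0.485) and Mertk (0.108) were not called. Adgre1 and Tyrobp were also above that filter in none of the line libraries, so no likeness of the lines is read from their results. Mertk was called by DESeq2 (adjusted p = 0.0423), and by edgeR without ih_STC_BM library 3 (0.00504) or without the 5 line libraries under 3% intronic reads (0.000192). The Msr1 call ended without ih_BCTC library 2 or 3 or ih_STC_BM library 1 or 2 (edgeR adjusted p = 0.0528, 0.0532, 0.0988 and 0.128). The order of the lines was not shared: the mean of C12 was highest for Cd68 and Fcer1g and lowest for Cd14, Mrc1 and Mertk. The mean of ih_STC_BM was highest for Lyz2 and Mertk, that of ih_DCTC for Cd14 and that of ih_BCTC for Mrc1. Of these leads, that of C12 for Fcer1g was free of overlap with the next line, and the rest overlapped with it. The low means of C12 overlapped as well, with ih_STC_BM for Cd14 and Mrc1 and with ih_CTC for Mertk. For Mrc1, C12 held 11 counts and ih_STC_BM 10, so these lines are not ordered. Adgre1, Msr1, C1qa and Tyrobp, with 14 counts or fewer in each line, are not ordered. The 2 lines labelled as macrophages, C12 and ih_CTC, thus gave opposite orders: Cd68 averaged 46 ± 22 CPM in C12 and 3.65 ± 1.46 CPM in ih_CTC, and Cd14 averaged 17.7 ± 1.1 CPM in C12 and 95.4 ± 4.55 CPM in ih_CTC (SD, n = 3 each), without overlap in either gene. The sum of the 10 genes was 85.7 CPM in C12, 109 CPM in ih_CTC, 143 CPM in ih_DCTC, 58.8 CPM in ih_BCTC and 67.7 CPM in ih_STC_BM, against 6958 CPM in MDSC and 20600 CPM in MSC.

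**Figure D3:**
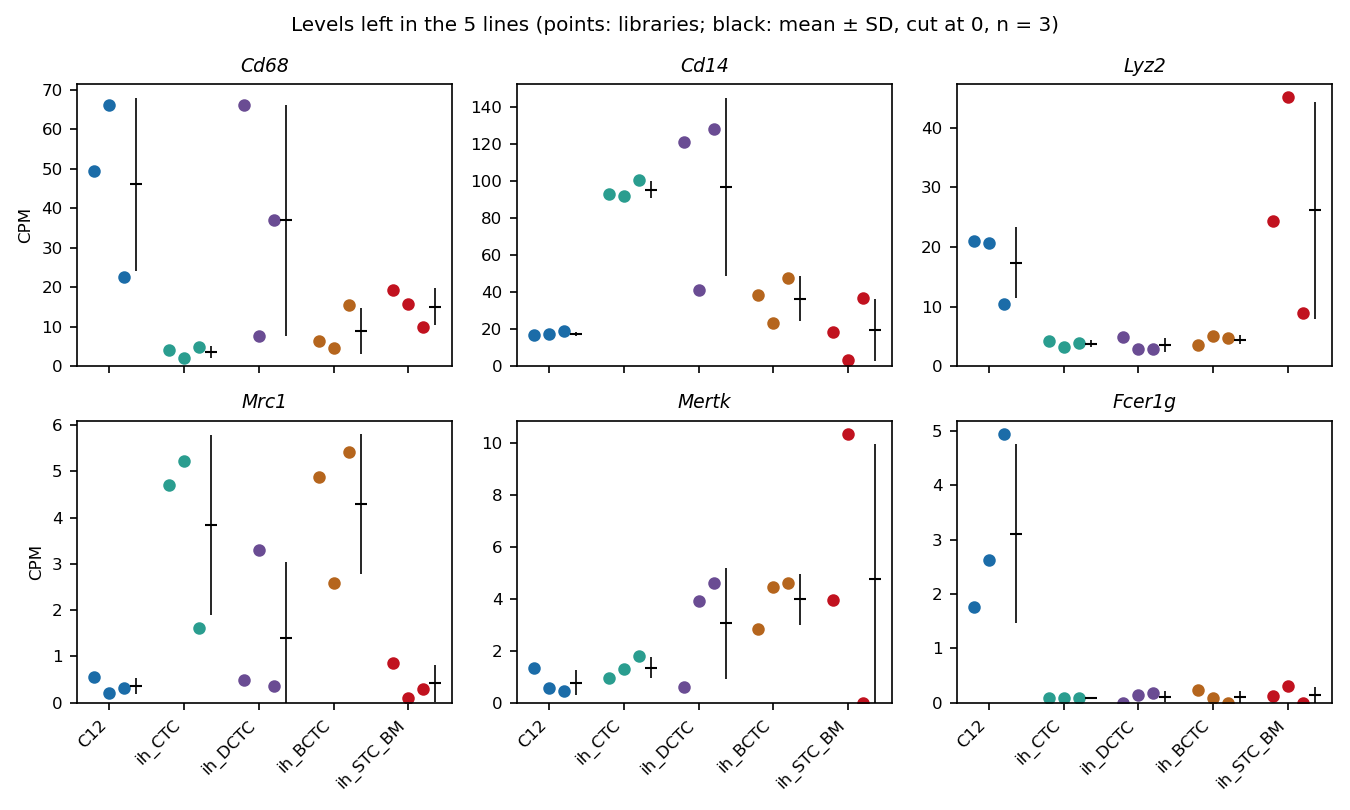
Levels of 6 genes in the 15 line libraries on linear CPM axes that start at 0, with black marks for the mean and SD of 3 libraries. Cd68 is highest in C12 and ih_DCTC, Cd14 in ih_DCTC and ih_CTC, Lyz2 in ih_STC_BM and C12, Mrc1 in ih_BCTC and ih_CTC, and Fcer1g in C12, while Mertk ranges over 0 to 10.3 CPM within ih_STC_BM.

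MDSC and MSC differed from each other in most of the 10 genes, with the lower level in MDSC for every gene except Cd14. In MDSC against MSC, 9 of 10 genes were called lower (25.6% of all tested genes were) and 0 higher by edgeR (20.4% of all genes; 1 at an unadjusted p under 0.05 and 1 by DESeq2, Cd14 in both). The fall was largest for Cd68 (log2 fold change -4.74 ± 0.70 SE, edgeR adjusted p = 3.4e-05), C1qa (-4.64 ± 0.41, 3.3e-07), Mrc1 (-4.43 ± 0.65, 3.1e-05) and Adgre1 (-4.23 ± 0.45, 1.2e-06). Mertk and Msr1 followed at -3.53 each and Fcer1g at -2.19. Lyz2 (-1.45, edgeR adjusted p = 0.0158) and Tyrobp (-1.43, 0.0358) were called less firmly: without MSC library 1 they gave edgeR adjusted p = 0.115 and 0.224. The Tyrobp call was also lost without any 1 MDSC library (0.0853 to 0.0912) or without MSC library 2 (0.0569). Cd14 ran the other way, averaging 768 ± 12.6 CPM in MDSC (SD, n = 3) and 296 ± 112 CPM in MSC (SD, n = 2). Its log2 fold change of 1.37 ± 0.63 (SE, 95% interval 0.05 to 2.70) was not called (edgeR adjusted p = 0.0837), although the libraries did not overlap. Without ih_STC_BM library 2 or 3 in the fit it was called (edgeR adjusted p = 0.0104 and 0.0418).

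The markers of other cell types show what stood beside these levels. MSC held the mesenchymal genes of its label (8 genes such as Col1a1, summing to 6267 CPM), together with the highest mean of every macrophage marker except Cd14 and 2796 CPM of 8 pan-leukocyte genes. MDSC held neutrophil genes (42860 CPM over 11 genes, with none at 0), pan-leukocyte genes (5899 CPM), erythroid genes (12130 CPM over 6) and B cell genes (1469 CPM over 5), and 24.8 CPM of the mesenchymal genes. In the lines, the mesenchymal sum was 7150 to 8832 CPM and the pan-leukocyte sum 2.47 to 16.2 CPM. The neutrophil sum was 12.6 to 47.3 CPM in 4 lines and 330 CPM in ih_DCTC, where Lcn2, a secreted protein that other cells also make, averaged 320 CPM. Col1a1, a collagen of fibroblasts and other mesenchymal cells, averaged 1568 to 2344 CPM in the lines, 2.51 CPM in MDSC and 2075 CPM in MSC. Ptprc, the common leukocyte antigen, averaged 0.236 to 0.758 CPM in the lines, 1555 CPM in MDSC and 214 CPM in MSC. In C12, ih_CTC and ih_DCTC, labelled as macrophages or dendritic cells, Adgre1, C1qa, Tyrobp and Ptprc each averaged at most 0.758 CPM. Cd68 averaged 46 CPM in C12, 3.65 CPM in ih_CTC and 37 CPM in ih_DCTC, and Cd14 averaged 17.7 CPM in C12, 95.4 CPM in ih_CTC and 97 CPM in ih_DCTC. Both were also read in ih_BCTC (Cd68 8.88 CPM, Cd14 36.7 CPM) and ih_STC_BM (Cd68 15 CPM, Cd14 19.6 CPM), whose labels name other cell types. Neither gene set apart the lines labelled as macrophages or dendritic cells. In ih_DCTC the dendritic cell genes summed to 9.15 CPM over 8, with Cd209a and Siglech at 0. In ih_BCTC the oligodendrocyte genes summed to 4.73 CPM over 6, with Olig2, Sox10 and Mog at 0. The part of these other cell types in the levels of the 10 genes was not tested.

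**Figure D4:**
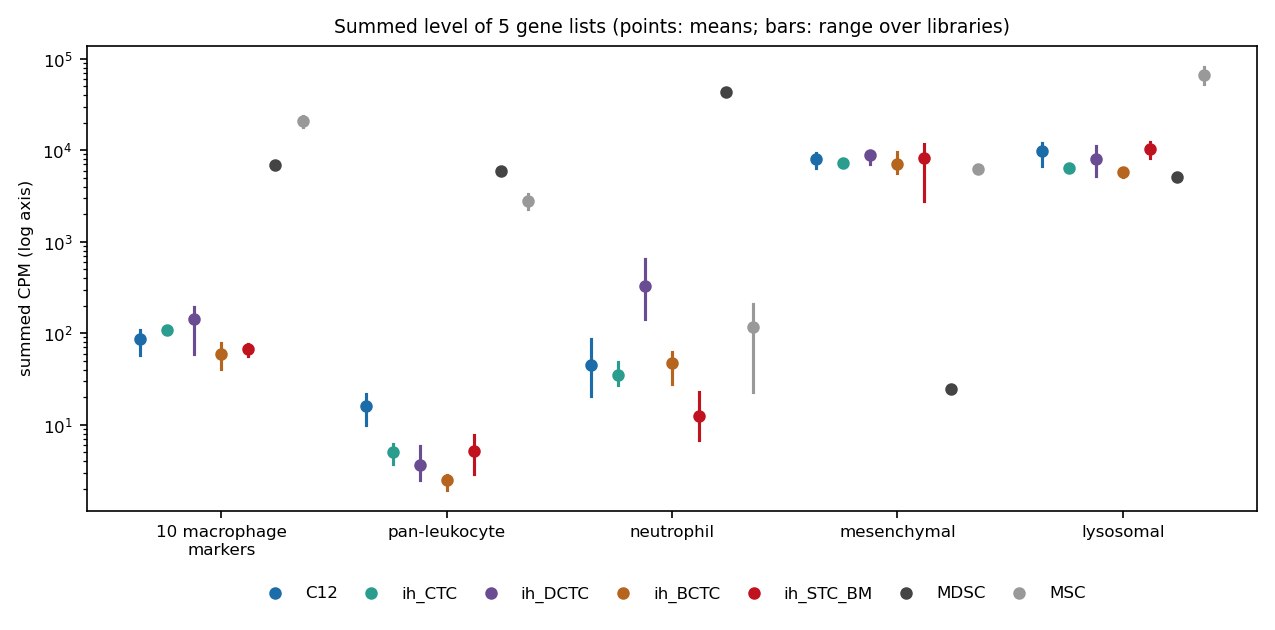
Summed CPM of 5 gene lists in the 7 groups on a log axis, with points for group means and bars for the range over libraries. The macrophage sum is 58.8 to 143 CPM in the lines against 6958 CPM in MDSC and 20600 CPM in MSC, and the mesenchymal sum is 24.8 CPM in MDSC against 7150 to 8832 CPM in the lines and 6267 CPM in MSC.

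Genes that work with the 10 markers were followed in lists of their own, whose counts are set against the percentages of all genes given above. Some list genes, such as Trem1, Spi1, C5ar1 and Cd180, averaged below the filter on low counts (0.98 CPM) in every line. Such genes entered the test through MDSC or MSC, where they were high, so the list counts describe the genes and are not read as support. Of 22 other macrophage and monocyte genes, 19 to 21 were called lower than MDSC in each line and 21 or 22 lower than MSC. Csf1r, the receptor of the macrophage growth factor, averaged 4.52 CPM in C12, 2.64 in ih_CTC, 2.04 in ih_DCTC, 0.419 in ih_BCTC and 2.73 CPM in ih_STC_BM, against 221 CPM in MDSC and 980 CPM in MSC. Itgam, an integrin chain of myeloid cells, averaged at most 1.09 CPM in the lines, against 850 CPM in MDSC and 359 CPM in MSC. Ctss, a protease of antigen-presenting cells, averaged 0.24 to 1.85 CPM in the lines, against 384 CPM in MDSC and 1845 CPM in MSC. Lgals3, a secreted lectin also made by many other cells, was the member that rose, in C12 (log2 fold change 2.46, edgeR adjusted p = 0.00258), ih_DCTC (2.34, 0.00371) and ih_STC_BM (2.60, 0.00179) against MDSC; it falls outside the naming rule and was picked after its values were seen.

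Of 20 receptors and enzymes that act with Tyrobp and Fcer1g, 19 were called lower than MDSC in every line and 18 lower than MSC. Syk, the kinase that both adaptors recruit, averaged 3.66 to 21.7 CPM in the lines, 928 CPM in MDSC and 250 CPM in MSC. Trem1, a receptor of neutrophils and monocytes that uses Tyrobp, averaged 0.0553 to 0.213 CPM in the lines, 974 CPM in MDSC and 1.04 CPM in MSC. Trem2, a lipid receptor of macrophages that uses Tyrobp, went against the list. It averaged 42.3 CPM in C12, 35.1 CPM in ih_DCTC and 18.6 CPM in ih_CTC, against 6.23 CPM in MDSC, and was called higher there (log2 fold change 2.76, 2.49 and 1.57; edgeR adjusted p = 0.00103, 0.00227 and 0.0349). The ih_CTC call was lost without any 1 library of ih_CTC or MDSC. It averaged 6.98 CPM in ih_BCTC and 7.72 CPM in ih_STC_BM, with no call. Against MSC, at 1082 CPM, Trem2 was lower in every line (-7.28 to -4.68). In the 3 lines where Trem2 rose, Tyrobp itself averaged 0.152 to 0.236 CPM.

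Partners of Mertk, Msr1 and Mrc1 split. Of 17 scavenger and dying-cell receptors with their bridging proteins, 9 or 10 were called higher than MDSC and 5 or 6 lower in each line; with intron share as a covariate, 3 were lower in C12. Those called lower in every line included Cd36, a lipid scavenger receptor (0.169 to 1.11 CPM in the lines, 48.2 CPM in MDSC, 1100 CPM in MSC). Axl and Tyro3, the other kinases of the Mertk family, were higher in all 5 lines than in either group; they fall outside the naming rule and were picked after their values were seen. Axl averaged 571 to 682 CPM in the lines, 32 CPM in MDSC and 245 CPM in MSC (log2 fold change 4.16 to 4.41 against MDSC and 1.22 to 1.48 against MSC; edgeR adjusted p up to 2.1e-08 and 0.0128). Tyro3 averaged 18.4 to 46 CPM in the lines, 0.946 CPM in MDSC and 7.41 CPM in MSC. Gas6, their shared bridging ligand, averaged 4.17 to 52 CPM in the lines, 1.27 CPM in MDSC and 728 CPM in MSC. Mrc2, the collagen-binding relative of Mrc1 in mesenchymal cells, averaged 48.1 to 346 CPM in the lines, 0.466 CPM in MDSC and 109 CPM in MSC, and rose against MDSC in every line (log2 fold change 6.69 to 9.54).

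Complement split likewise. Of 13 genes, 2 to 4 were called higher and 6 to 10 lower than MDSC in each line, and the 10 of ih_STC_BM became 6 with intron share as a covariate. C1s1, a protease of complement C1, averaged 157 to 418 CPM in the lines, 0.607 CPM in MDSC and 20.8 CPM in MSC. It was called higher in all 5 lines against MDSC (log2 fold change 8.01 to 9.41) and against MSC (2.92 to 4.33). C5ar1, a receptor of an activated complement fragment, averaged 0.0573 to 0.225 CPM in the lines, 217 CPM in MDSC and 128 CPM in MSC. Of 12 genes of the lipopolysaccharide pathway around Cd14, 6 to 8 were called lower than MDSC, 5 in C12 and ih_DCTC with intron share as a covariate and 11 in ih_BCTC under RLE scaling. Tlr4 averaged 17 to 43.8 CPM in the lines, 64.4 CPM in MDSC and 53.3 CPM in MSC. Cd180, a related receptor of B cells and macrophages, averaged at most 0.113 CPM in the lines, 79.5 CPM in MDSC and 155 CPM in MSC. Of 14 macrophage transcription factors, 8 to 11 were called lower than MDSC. Spi1, which makes PU.1, averaged 0.05 to 0.333 CPM in the lines, 221 CPM in MDSC and 328 CPM in MSC. Of 13 lysosomal genes beside Cd68, 10 to 12 were called lower than MSC in each line; their counts against MDSC moved with most settings and are not read. Ctsd, a lysosomal protease, averaged 289 to 1166 CPM in the lines, 926 CPM in MDSC and 19720 CPM in MSC, and Ctsl averaged 2007 to 2859 CPM in the lines, 162 CPM in MDSC and 3011 CPM in MSC.

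The genes with the most similar profile over the 7 group means were found for each marker by Pearson correlation of log2 CPM among 13404 genes. Such a correlation is a description over 7 points that share libraries, and the gap between the lines and the other groups sets most of it. The nearest genes were Cysltr1 for Adgre1 (r = 0.9995), Cd84 for Tyrobp (0.9994), Sult1a1 for C1qa (0.9986), Aldh1b1 for Msr1 (0.9983), Mag for Fcer1g (0.998) and Rnpepl1 for Lyz2 (0.9971). They were Plekhm3 for Cd14 (0.9943), Ndst2 for Mertk (0.992), Cdh5 for Mrc1 (0.989) and Casp9 for Cd68 (0.9887). C1qb was also among the 3 nearest of C1qa (0.9968), and Itgax, an integrin chain of myeloid cells, among those of Tyrobp (0.9991). Among the markers themselves, Msr1 and C1qa were closest (0.994), and Cd68 and Cd14 least alike (0.465). Of the 30 nearest genes, 6 were found again when all 20 libraries took the place of group means.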

How the data were processed

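RNA was sequenced from 20 mouse libraries in 7 groups, assigned by the labels alone. The authors deposited a table of expected counts per gene; per the submitters' processing notes, STAR, RSEM 1.2.26 and DESeq2 were used, with no role or order given. Of the deposited values, 8.37% were not whole, and all were rounded. Genes passing edgeR's filterByExpr (minimum count 10, total 15; 15779 of 43432) were fitted with TMM normalization in edgeR 4.0.16 (R 4.3.3) with robust quasi-likelihood, all 20 libraries and 7 group means; p-values were two-sided and Benjamini-Hochberg adjusted over all tested genes, with calls under 0.05. SE is the log2 fold change over the root of F. Levels are TMM-scaled CPM. In 11 comparisons each line was set against MDSC and MSC, and MDSC against MSC, with 1 further test of any difference among the 5 lines.

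The markers and lists were chosen with earlier results of these data known. All 10 markers are named. Of each list, up to 3 called genes with the largest fold change and at least 5 CPM in the higher group may be named per comparison, beside a fixed panel (Ptprc, Csf1r, Itgam, Spi1, C1qb, C1qc, Trem2, Syk, Col1a1). Of the list genes, 195 of 196 matched the table. Tested on simulated counts for C12 against MDSC (15779 genes), the fit called 1 of 67 genes changed 2-fold, 31 of 67 changed 4-fold, 58 of 66 changed 16-fold and 7 of 15579 unchanged genes. Alternatives were other scalings, no filter, DESeq2 1.42.0, the groups compared only, intron share as a covariate, a fold minimum and each library left out. Both the fit with MDSC summed and that without 5 line libraries under 3% intronic reads were chosen after seeing the data.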

Additional observations from a re-analysis of the deposited data

Results flagged for a closer look

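Among the 5 transformed lines, 7 of the 10 macrophage markers were called by edgeR's quasi-likelihood test of any difference between lines. The same test called 33.2% of all 15779 tested genes. For Fcer1g (adjusted p = 5.2e-06), C12 averaged 3.11 CPM against 0.0877 to 0.142 CPM in the other lines. For Lyz2 (adjusted p = 8.9e-05), ih_STC_BM averaged 26.1 CPM and C12 17.4 CPM against 3.57 to 4.46 CPM in the rest. For Cd68 (adjusted p = 0.00153), means ran over 3.65 CPM in ih_CTC to 46 CPM in C12. For Mrc1 (adjusted p = 0.00205), they ran over 0.361 CPM in C12 to 4.29 CPM in ih_BCTC. For Cd14 (adjusted p = 0.00339), they ran over 17.7 CPM in C12 to 97 CPM in ih_DCTC. Neither of the remaining 2 genes was above the filter on low counts in any line library, so their calls rest on few counts and are not read as differences. C1qa (adjusted p = 0.00608) had 0 counts in C12 and 14 in ih_STC_BM. Msr1 (adjusted p = 0.028) had 13 counts in ih_STC_BM and 1 to 4 in each other line.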

How the results depend on the processing

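Under the alternatives, 660 counts of markers called stayed within 1.5 times the count reported and 6 did not. Those 6 were the markers higher in MDSC than in MSC, 0 in the fit reported and 1 (Cd14) with intron share as a covariate, with the groups compared only, with DESeq2 and without the 5 line libraries of low intron share; leaving out 1 library gave 0 to 1. Directions turned for Cd68 in C12 against MDSC (0.033 without C12 replicate 3; -0.625 to 0.033 with 1 library left out) and for Mertk against MDSC. With intron share as a covariate Mertk was 0.655 in ih_DCTC, 0.659 in ih_BCTC and 1.105 in ih_STC_BM. In ih_STC_BM it was 0.594 without the low-intron libraries and -1.773 to 0.075 with 1 library left out. The cause was not tested.

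Calls that an alternative ended were those of Mertk in C12 (adjusted p = 0.677 with the covariate) and ih_CTC (0.215 with the covariate, 0.0994 with MDSC summed) against MDSC, and Cd68 in ih_STC_BM against MDSC (0.0572 summed, 0.0631 without low-intron libraries). For Cd14 against MSC, the ih_CTC call was lost without C12 library 1, ih_BCTC library 1, or any 1 library of ih_CTC, MDSC or MSC (adjusted p up to 0.292), with the covariate (0.616) and with MDSC summed (0.0627). The ih_DCTC call was lost without C12 library 1 or 2, ih_DCTC library 1 or 2, ih_BCTC library 1 or 3, ih_STC_BM library 1, or any 1 library of ih_CTC, MDSC or MSC (0.0509 to 0.297), and under upper quartile scaling (0.0598), no filter (0.0548), the covariate (0.0794), the groups compared only (0.0568) and MDSC summed (0.0666). In ih_STC_BM against MSC, Mertk gave 0.0819 with the groups compared only. Between MDSC and MSC, MDSC summed ended Lyz2 (0.183), Mertk (0.0938) and Tyrobp (0.273), and Tyrobp was also lost under RLE (0.0515) and with the covariate (0.982). Among the lines, Msr1 was lost with MDSC summed (0.0548) and C1qa without the low-intron libraries (0.0714). Without those libraries, Cd68 (0.0478) and Mertk (0.0402) in ih_DCTC and Mertk in ih_BCTC (0.0143) became called lower than MDSC. Mertk in ih_BCTC was also called lower than MDSC with the groups compared only (log2 fold change -0.788, edgeR adjusted p = 0.028). Upper quartile scaling set the all-gene median (log2, lines against MDSC) at 0.24 to 0.31, where TMM gave 0.03 to 0.10. No paired analysis was possible because the labels give no replicate numbers. At this depth, lines cannot be ordered on genes with 0 to 14 counts a group.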

Other observations

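Relative to the MSC mean, the line means of 5 of the 10 markers stayed under 0.17%. They were 0.00979% to 0.0255% for Adgre1, 0.00508% to 0.0997% for Msr1, 0.0196% to 0.0711% for Tyrobp, 0% (C12) to 0.11% (ih_STC_BM) for C1qa and 0.0231% to 0.169% for Lyz2. The partner chains of C1qa stood at 0.00945% to 0.0682% (C1qb) and 0.0135% to 0.0664% (C1qc). Relative to the MDSC mean, the neutrophil genes S100a8 (8527 CPM in MDSC) and S100a9 (13340 CPM) stood at 0.0191% to 0.051% and 0.0109% to 0.0165%, and Ptprc at 0.0152% to 0.0487%. Higher shares of the MSC mean were found in all 5 lines for Cd14 (5.97% to 32.7%), Mertk (0.98% to 5.99%) and Cd68 (0.242% to 3.05%). Fcer1g stood at 0.767% in C12 and at 0.0217% to 0.0351% in the other lines. Mrc1 stood at 0.633% in ih_CTC, 0.228% in ih_DCTC and 0.705% in ih_BCTC, and at 0.0592% in C12 and 0.0688% in ih_STC_BM. These are percentages of means with no test.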
